A study of Rattus norvegicus with 45 samples.

Results

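The genes described here are 34 genes that astrocytes express strongly or that mark reactive astrocytes, followed through 3 brain regions of rats after chronic antipsychotic dosing. Each was measured on Affymetrix rat expression arrays by the probe set whose platform symbol is that gene, and where a gene had several, by the one with the highest mean log2 intensity over all 45 arrays. Of the 34 genes, 31 had such a probe set among the 14217 genes on the array with one. Sox9, Ppp1r3c and Osmr had none. Of the 31, 28 passed a filter on low values, which kept probe sets whose mean lay no lower than the 40th percentile of all probe sets, and 10248 genes in all passed it. Lcn2, Timp1 and Serpina3n did not pass. The rule uses no measured difference between groups, but the list of genes was drawn up with earlier results of these data known.

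The arrays came from 15 male Sprague-Dawley rats, an outbred strain, aged 9 to 11 weeks when a subcutaneous minipump was implanted. For 21 days, 5 rats received haloperidol at 0.25 mg/kg/d, 5 received risperidone at 5 mg/kg/d and 5 received the vehicle, dilute acetic acid, alone. Each rat gave striatum, hippocampus and frontal cortex as whole pieces of tissue, so each of the 9 groups of drug and region held 5 arrays, and the 3 arrays of a rat were not independent. The tissue labels speak of mouse brain, whereas organism and array are rat. Each drug was given at 1 dose and for 1 length of time. In RNA of whole tissue, fewer astrocytes and less RNA per astrocyte cannot be told apart.

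Astrocytes clear glutamate and potassium from the space around synapses, supply neurons with glutamine and lactate, and line blood vessels with endfeet rich in water channels. Gap junctions built of connexins join them into networks. When tissue is injured or inflamed they become reactive, a state known for more of the filament protein GFAP. Haloperidol blocks dopamine receptors of the D2 class, and risperidone blocks these and serotonin receptors. Several of the genes are also used by other brain cells: Vim by endothelial and ependymal cells, Clu and Cst3 by choroid plexus, S100b by oligodendrocytes, and Fabp7 by radial glia and the glia of the olfactory system.

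With 5 arrays a group, precision is set by that number. Some arrays stood apart in markers of a neighboring tissue, taken as the mean log2 value of a marker list minus the median of the 15 arrays of the region. Olfactory bulb markers were more than 0.5 above that median in frontal cortex of haloperidol replicate 5 (0.93) and risperidone replicates 2 and 5 (2.30 and 1.74). Pyramidal neuron markers were so in striatum of haloperidol replicates 3 and 5 (0.79 and 1.11) and risperidone replicates 3 and 5 (1.62 and 0.70), and choroid plexus and meningeal markers in hippocampus of risperidone replicates 2 and 3 (0.64 and 1.61). No vehicle array passed 0.5 for these lists in these regions. Choroid plexus and meningeal markers also stood apart in striatum, in haloperidol replicates 1 and 2 (1.94 and 0.57), risperidone replicate 5 (1.46) and vehicle replicates 1 and 4 (2.16 and 0.80), and no array was left out for them. Values without the 9 arrays first named stand beside the called drug results below.

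Against vehicle, few of the 28 genes were called changed after risperidone and none after haloperidol. Gfap and Gpr37l1 in striatum and Fabp7 in frontal cortex were called higher after risperidone, and none of the 28 was called lower in any region. None of these calls held without the arrays high in markers of a neighboring tissue, or with the marker level as a covariate. A gene was called changed at an adjusted p under 0.05 (limma, Benjamini-Hochberg over 18609 probe sets) and at least a 1.2-fold difference, which is 0.26 on the log2 scale. In striatum 2 of the 28 genes were called after risperidone, beside 3% of all genes tested. In frontal cortex 1 of 28 was called after risperidone, beside 3.3% of all genes, and in hippocampus 0 of 28, beside 0.117%. After haloperidol, 0 of 28 genes were called in each region, beside 0.263% of all genes in striatum, 0% in hippocampus and 0.146% in frontal cortex. At an unadjusted p under 0.05 there were 5, 2 and 4 genes for haloperidol in striatum, hippocampus and frontal cortex and 5, 4 and 6 for risperidone, and ordinary t statistics also called 0 in the 4 comparisons without a call.

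**Figure D1:**
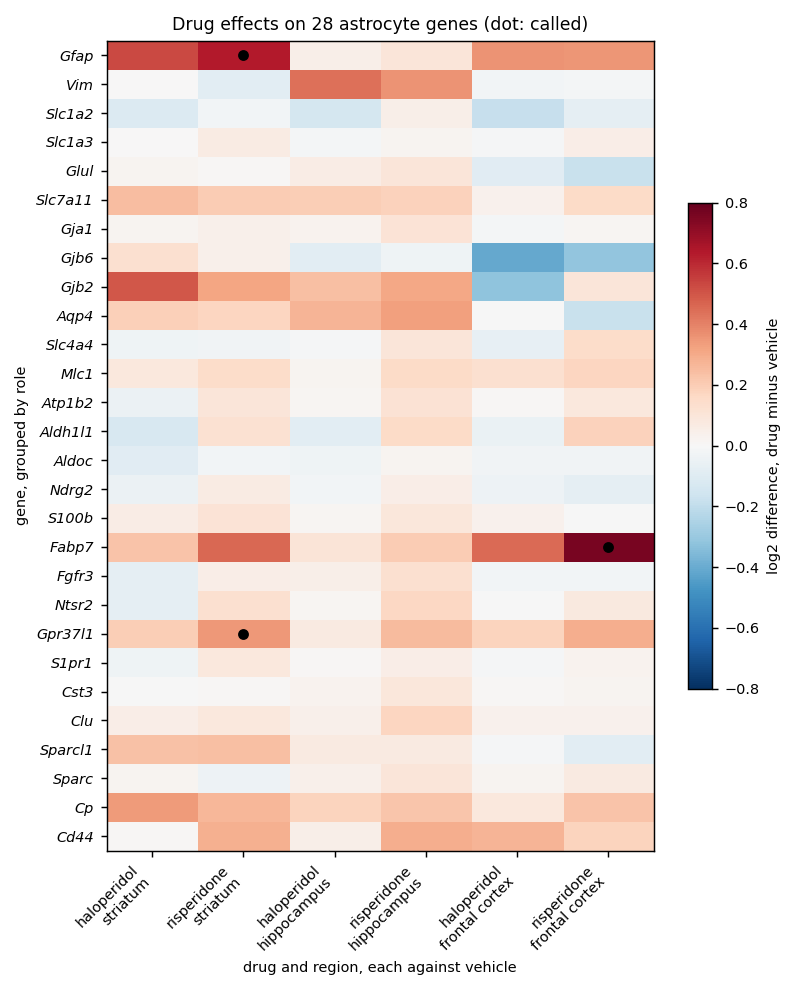
Color shows the log2 difference of drug minus vehicle for each of the 28 tested genes (rows, grouped by role) in the 6 comparisons of a drug with vehicle (columns), and a black dot marks a called gene. The 3 dots are Gfap and Gpr37l1 in striatum and Fabp7 in frontal cortex, all after risperidone, and the hippocampus column of risperidone is positive for every gene but Gjb6.

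The sign of the differences varied by drug and region. After risperidone 23 of 28 differences were positive in striatum, 27 in hippocampus and 18 in frontal cortex, with medians of 0.09, 0.11 and 0.04 on the log2 scale. The medians over all 10248 genes tested were -0.02, 0.03 and 0.03 in the same order, and 44.7%, 61.4% and 61.1% of all genes were positive, beside 82.1%, 96.4% and 64.3% of the members. After haloperidol 18, 21 and 12 differences were positive, with medians of 0.02, 0.03 and -0.004, against -0.02, -3.46e-04 and -0.03 for all genes. The haloperidol count in frontal cortex was not stable: it was 8 to 22 with 1 rat left out (median -0.05 to 0.04), 18 without the array high in olfactory bulb markers and 22 with centred arrays. The count in hippocampus after risperidone was 26 to 28 with any 1 rat left out and 27 without the arrays high in neighboring tissue, while the median of the 28 was 0.10 to 0.14 and 0.10. In striatum after risperidone the count was 21 to 27 and 18, and the median 0.05 to 0.14 and 0.05. By role, the median difference in striatum after risperidone was 0.28 for the 2 intermediate filament genes (1 called), 0.12 for 4 genes of water and ion transport, 0.11 for 5 of metabolism and calcium binding, 0.11 for 4 receptors (1 called), 0.08 for 5 secreted proteins and 0.04 each for 4 genes of glutamate handling and 3 connexins. The genes vary together from array to array, as described below, so the 28 signs are not 28 separate observations.

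In striatum, Gfap was the astrocyte gene with the largest rise. It encodes the intermediate filament protein by which reactive astrocytes are usually recognized. Its log2 intensity was 11.26, 11.11, 11.79, 11.01 and 11.79 in the 5 risperidone rats and 10.93, 11.62, 11.67, 10.76 and 11.43 in the haloperidol rats, against 10.82, 10.80, 10.78, 10.65 and 10.71 in the vehicle rats. Every risperidone rat lay above every vehicle rat, 1 haloperidol rat lay within the vehicle range, and both drug groups were spread wider than the vehicle group (SD 0.37 and 0.41, against 0.07, n = 5 each). Risperidone rats averaged 11.39 and vehicle rats 10.75, a difference of 0.64 (standard error 0.15, 1.56-fold, adjusted p = 0.00942 from limma). Haloperidol rats averaged 11.28, a difference of 0.53 that was not called (adjusted p = 0.105).

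The Gfap values stand beside the level of pyramidal neuron markers in the same arrays. The marker list stood at -0.55, -0.24, 1.62, 0.00 and 0.70 in the risperidone rats and at 0.14, -0.34, 0.79, 0.18 and 1.11 in the haloperidol rats, against -0.67, -0.03, -0.57, 0.06 and -0.44 in the vehicle rats. Risperidone replicates 3 and 5, the highest in Gfap, were also the highest of their group in these markers. Haloperidol replicate 2 was high in Gfap but the lowest of its group in these markers (-0.34). Its choroid plexus and meningeal markers stood 0.57 above the median. Of the 10 measured pyramidal neuron markers none was called in striatum, with a median difference of 0.60 after risperidone and 0.70 after haloperidol, and their summed intensity ran from 6429 to 16180 after risperidone, 6183 to 11610 after haloperidol and 5775 to 7219 after vehicle. Oligodendrocyte markers had a median difference of 0.27 after each drug, and Rbfox3 and Syp, of 12 general neuronal markers, rose after risperidone. Without the 4 arrays high in pyramidal markers the difference of Gfap after risperidone was 0.39 (adjusted p = 0.214), with the marker level as a covariate it was 0.50 (adjusted p = 0.112), and without risperidone replicate 3 alone it was 0.54 (adjusted p = 0.0694). The part of other tissue in the result was not tested beyond these values.

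**Figure D2:**
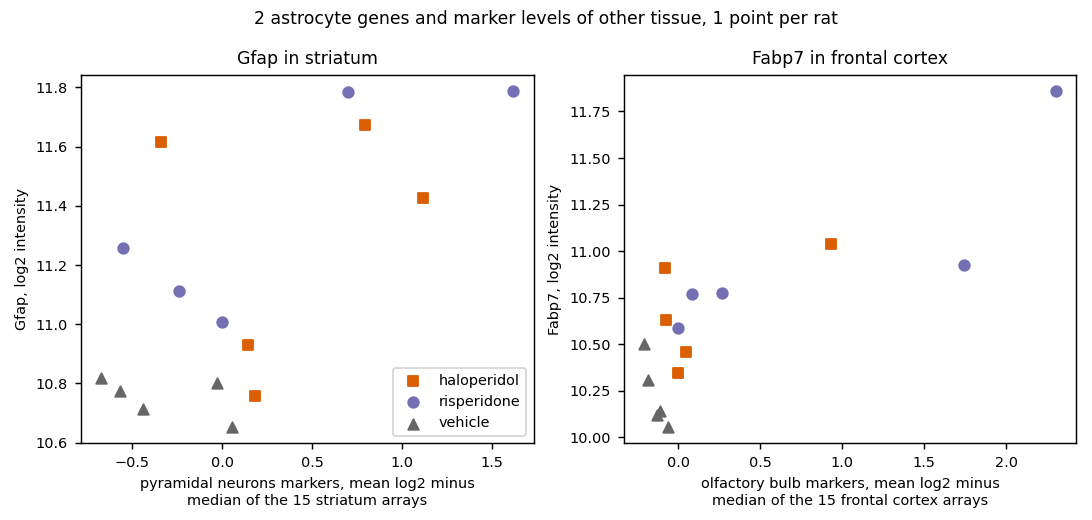
Log2 intensity of Gfap in striatum (left) and of Fabp7 in frontal cortex (right), 1 point per rat, against the level of pyramidal neuron or olfactory bulb markers in the same array, as the mean log2 value minus the median of the region's 15 arrays. The highest Gfap values after risperidone, both 11.79, belong to arrays 0.70 and 1.62 above the median in pyramidal markers, and the highest Fabp7 value, 11.86, belongs to an array 2.30 above it in olfactory bulb markers.

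Gpr37l1, an orphan G protein-coupled receptor found mainly on astrocytes, was the other gene called in striatum. Its log2 intensity was 10.31, 10.22, 10.65, 10.30 and 10.31 in risperidone rats, against 9.95, 10.19, 9.76, 10.001 and 10.17 in vehicle rats. The groups did not overlap, though risperidone replicate 2 lay only just above vehicle replicate 2, and risperidone replicate 3 stood above its group. The difference was 0.34 (standard error 0.10, 1.27-fold, adjusted p = 0.0319 from limma). The call was lost without risperidone replicate 3 and without vehicle replicates 1, 3 or 4 (differences of 0.27 to 0.39 over the 10 rats left out in turn, largest adjusted p = 0.174), and without the arrays high in pyramidal markers (0.27, adjusted p = 0.257). The differences after risperidone were 0.25 in hippocampus (adjusted p = 0.194) and 0.29 in frontal cortex (adjusted p = 0.0676).

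Sparcl1, Cd44 and Fabp7 lay close to the threshold in striatum. These genes, and Gfap after haloperidol, are given although they were not called, and they were chosen after their values had been seen. Sparcl1, which encodes the secreted synapse-promoting protein hevin, passed the adjusted p (0.0445) but not the fold, with a difference of 0.24. Its log2 intensity was 12.89, 12.92, 13.45, 12.98 and 12.86 in risperidone rats, against 12.64, 12.89, 12.96, 12.69 and 12.70 in vehicle rats, so that the groups overlapped and risperidone replicate 3 stood far above the rest. Without that rat the difference of Sparcl1 was 0.13 (adjusted p = 0.292). The striatal array of that rat was also the highest in pyramidal neuron markers, 1.62 above the median. Over 45 arrays, after subtraction of group means, Sparcl1 correlated with those markers (Pearson's r 0.56). After haloperidol Sparcl1 differed by 0.23 (adjusted p = 0.133).

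Cd44, the hyaluronan receptor that marks some reactive and fibrous astrocytes, had a difference of 0.28 in striatum after risperidone (adjusted p = 0.0507). Cd44 was dim and passed the filter narrowly, at percentile 41.6 against a limit of 40. Its vehicle means in striatum (5.84) and frontal cortex (5.62) lay below the filter level of 5.883. Its differences are therefore to be read with caution. The 5 risperidone rats were close together, at 6.06, 6.09, 6.10, 6.21 and 6.16, against 5.78, 5.63, 5.73, 6.09 and 5.97 in vehicle rats. Vehicle replicate 4 reached into the risperidone range, and without it Cd44 passed (0.35, adjusted p = 0.0173). Fabp7 differed by 0.46 in striatum (adjusted p = 0.0941), and without risperidone replicate 2 or 4 it passed (adjusted p = 0.0321 and 0.0461).

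**Figure D3:**
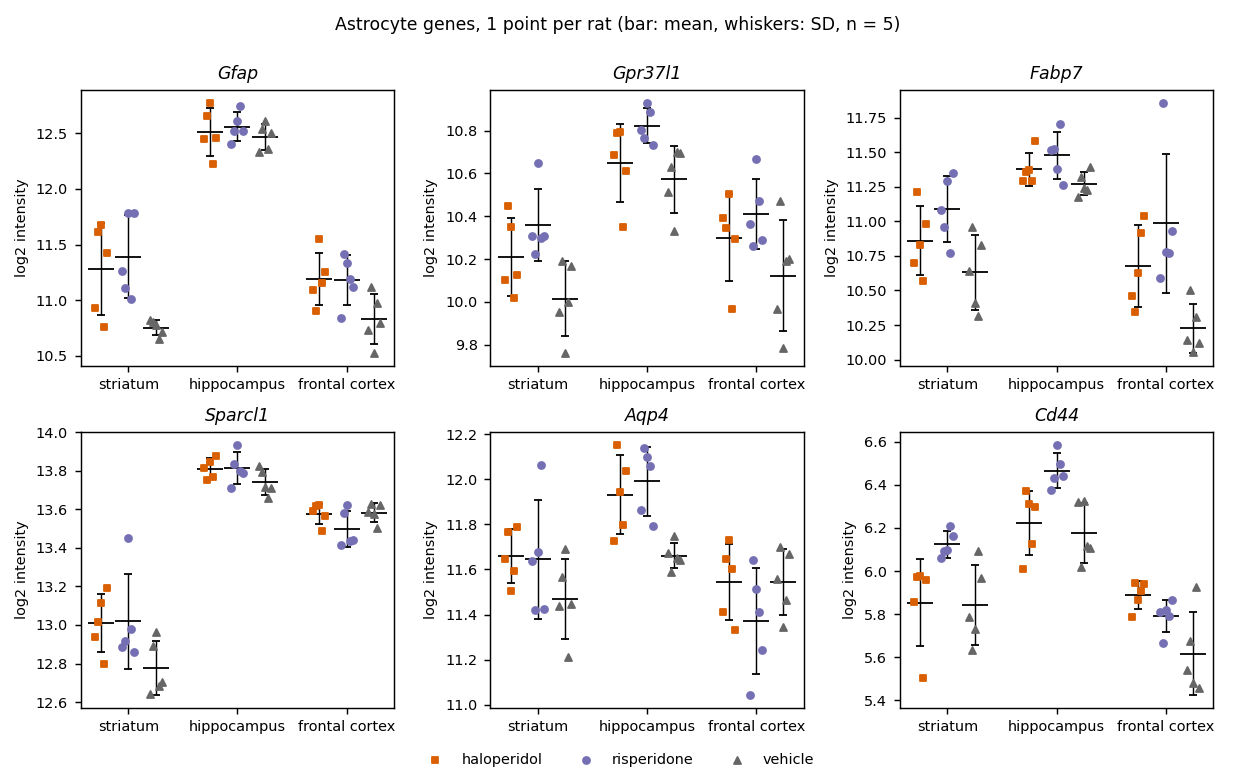
Log2 intensity of 6 astrocyte genes in striatum, hippocampus and frontal cortex, 1 point per rat, with haloperidol, risperidone and vehicle from left to right in each region, the mean as a bar and the SD as whiskers (n = 5). In striatum the Gfap values of both drugs spread upward from the 5 vehicle values, which lie between 10.65 and 10.82, and risperidone replicate 2 stands out in Fabp7 of frontal cortex at 11.86.

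Transport genes gave different readings on their several probe sets. Of the 50 probe sets of the 31 genes, 40 passed the filter, and 2 that were not the brightest of their gene were called against vehicle, both in striatum after risperidone, beside 3.65% of all probe sets. A second probe set of Slc1a3, the glutamate transporter GLAST, read 7.28, 7.38, 7.25, 7.23 and 7.14 in risperidone rats and 6.94, 7.18, 7.03, 7.17 and 7.17 in haloperidol rats, against 6.37, 6.72, 6.86, 6.61 and 6.82 in vehicle rats. All rats of both drug groups lay above all vehicle rats. The difference was 0.58 after risperidone (standard error 0.11, adjusted p = 9.61e-04) and 0.42 after haloperidol (adjusted p = 0.0687).

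That reading of Slc1a3 kept its call after risperidone with each of the 10 rats left out (0.51 to 0.63, adjusted p up to 0.00803), without the arrays high in pyramidal markers (0.61, adjusted p = 0.00361) and with those markers as a covariate (0.59, adjusted p = 0.00408). The other 2 probe sets of Slc1a3 were not called, with differences of 0.06 on the brightest (95% interval -0.08 to 0.21) and 0.12 on the third (-0.05 to 0.29). The effect of risperidone on the second probe set was larger in striatum than in frontal cortex (by 0.55, adjusted p = 0.0207) and than in hippocampus (by 0.64, adjusted p = 0.0114), beside 2.94% and 1.66% of all probe sets called. A second probe set of Atp1b2, a beta subunit of the sodium pump, read 8.42, 8.17, 8.43, 8.38 and 8.54 in risperidone rats, against 8.03, 7.996, 7.96, 8.16 and 8.12 in vehicle rats. These groups did not overlap (difference 0.33, adjusted p = 0.0190), but leaving out any of 3 rats among the 10 ended the call of Atp1b2 (largest adjusted p = 0.0606), as did leaving out the arrays high in pyramidal markers (0.29, adjusted p = 0.120), and the brightest probe set differed by 0.09.

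In frontal cortex, Fabp7 was the astrocyte gene called after risperidone. It encodes the brain lipid-binding protein, which carries fatty acids in radial glia and in astrocytes. Its log2 intensity was 10.59, 11.86, 10.78, 10.77 and 10.93 in risperidone rats and 10.46, 10.35, 10.63, 10.91 and 11.04 in haloperidol rats, against 10.14, 10.50, 10.06, 10.31 and 10.12 in vehicle rats. All risperidone rats were above all vehicle rats, with risperidone replicate 2 far above the others, and the haloperidol rats overlapped with vehicle. The difference was 0.76 after risperidone (standard error 0.17, 1.69-fold, adjusted p = 0.00668 from limma) and 0.45 after haloperidol (adjusted p = 0.222).

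Fabp7 in frontal cortex moved with olfactory bulb markers, of which 5 of the 7 tested genes also rose after risperidone (median difference 0.90), as did Tyrobp of 11 tested microglial markers. The list stood at 0.00, 2.30, 0.27, 0.09 and 1.74 in risperidone rats and at 0.05, 8.59e-04, -0.08, -0.08 and 0.93 in haloperidol rats, against -0.11, -0.21, -0.06, -0.18 and -0.13 in vehicle rats. Its summed intensity ran from 1610 to 6667, from 1560 to 2962 and from 1448 to 1636 in these groups. The defining genes Eomes, Omp, Th and Trh were below the filter. They are part of the list level and the summed intensity, which use all 11 genes of the list with a probe set. The count of 5 of 7 uses tested genes only. The rise of Fabp7 held with each of the 10 rats left out (0.54 to 0.86, with the largest adjusted p, 0.0288, when risperidone replicate 2 was omitted). Without the 3 arrays high in olfactory bulb markers it was 0.47 (adjusted p = 0.0589), with the markers as a covariate 0.36 (adjusted p = 0.305), and with frontal cortex fitted on its own arrays the adjusted p was 0.0550.

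Other genes in frontal cortex missed the threshold. Gfap differed by 0.36 after haloperidol and 0.35 after risperidone (adjusted p = 0.283 and 0.151). Gjb6, a connexin that couples astrocytes and first appears as they mature, had the lowest differences of the 28, -0.41 after haloperidol and -0.31 after risperidone (adjusted p = 0.180 and 0.146). Its log2 intensity was 9.22, 9.33, 9.26, 8.93 and 8.76 in haloperidol rats and 9.15, 9.16, 9.47, 9.42 and 8.79 in risperidone rats, against 9.44, 9.80, 9.27, 9.41 and 9.63 in vehicle rats, and each drug group overlapped with vehicle. Glul, the glutamine synthetase that turns glutamate into glutamine, differed by -0.18 after risperidone (adjusted p = 0.107), and Cd44 by 0.27 after haloperidol (adjusted p = 0.180).

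In hippocampus no astrocyte gene was called. The risperidone groups of Aqp4, Cd44, Gpr37l1 and Clu lay wholly above vehicle. The share of all genes that did so was not counted, so nothing about the members is read from the lack of overlap. By the different measure of sign, 61.4% of all genes had a positive difference there. Aqp4, the water channel of astrocyte endfeet, read 11.86, 12.14, 12.10, 12.06 and 11.79 in risperidone rats and 11.73, 12.15, 11.94, 11.80 and 12.04 in haloperidol rats, against 11.67, 11.59, 11.75, 11.65 and 11.64 in vehicle rats. Only haloperidol replicate 1 fell within the vehicle range. The differences were 0.33 after risperidone (95% interval 0.11 to 0.55, adjusted p = 0.140) and 0.27 after haloperidol (0.05 to 0.49, adjusted p = 0.9996). Cd44 differed by 0.29 after risperidone (adjusted p = 0.106) and Gpr37l1 by 0.25, as given above, each with no overlap between risperidone and vehicle. Clu read 13.05, 13.09, 13.29, 13.12 and 13.03 in risperidone rats, against 12.97, 12.88, 12.96, 12.89 and 13.01 in vehicle rats, a difference of 0.17 (adjusted p = 0.414), and its highest value belonged to replicate 3, the array highest in choroid plexus and meningeal markers. Vim, an intermediate filament protein shared with ependymal and endothelial cells, differed by 0.44 after haloperidol (adjusted p = 0.9996). In the comparison of risperidone with vehicle there, the median difference was 0.57 for choroid plexus and meningeal markers and 0.36 for ependymal markers. It was 0.34 for oligodendrocyte markers, 0.10 for microglial markers and -0.24 for endothelial markers. None of the genes of these lists was called. After haloperidol the median difference of ependymal markers was 0.30, also with none called.

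Risperidone and haloperidol did not differ in any of the 28 genes in striatum, hippocampus or frontal cortex at these thresholds, beside 0%, 0% and 0.878% of all genes called. There were 3, 2 and 2 genes at an unadjusted p under 0.05, and ordinary t statistics also called 0. Aldh1l1, a folate enzyme widely used to mark astrocytes, was among them in every region, with differences of risperidone minus haloperidol of 0.25 in striatum (95% interval 0.08 to 0.43), 0.24 in hippocampus (0.06 to 0.41) and 0.24 in frontal cortex (0.06 to 0.41), with adjusted p of 0.748, 0.810 and 0.111. The 3 regions came from the same rats. In hippocampus Aldh1l1 read 8.37, 8.48, 8.48, 8.60 and 8.49 in risperidone rats, against 8.397, 8.21, 8.32, 8.10 and 8.22 in haloperidol rats, with only haloperidol replicate 1 inside the risperidone range. Cd44 differed by 0.27 in striatum (adjusted p = 0.656) and by 0.24 in hippocampus (adjusted p = 0.810), risperidone minus haloperidol, with no overlap between the drugs in either region. In striatum the haloperidol mean of Cd44 was 5.85, below the filter level of 5.883.

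The effect of risperidone differed between regions for 2 genes. The effect on Sparcl1 was larger in striatum than in frontal cortex by 0.33 (standard error 0.09, adjusted p = 0.0374), as the only call among the 28 beside 2.99% of all genes, with differences from vehicle of 0.24 in striatum and -0.08 in frontal cortex. In frontal cortex Sparcl1 read 13.42, 13.58, 13.62, 13.44 and 13.44 in risperidone rats, against 13.59, 13.63, 13.57, 13.50 and 13.62 in vehicle rats, with overlap. The effect on Aqp4 was larger in hippocampus than in frontal cortex by 0.51 (standard error 0.14, adjusted p = 0.0481), beside 1.26% of all genes, with differences of 0.33 in hippocampus and -0.18 in frontal cortex. In frontal cortex Aqp4 read 11.04, 11.64, 11.52, 11.41 and 11.24 in risperidone rats, against 11.56, 11.70, 11.34, 11.46 and 11.67 in vehicle rats, again with overlap, and risperidone replicates 1 and 5 were the lowest. Another probe set of Aqp4 gave 0.37 for the same difference (adjusted p = 0.0152), beside 1.32% of all probe sets, and the third gave 0.30 (adjusted p = 0.248). Without the arrays high in neighboring tissue the difference was 0.25 for Sparcl1 (adjusted p = 0.0981) and 0.49 for Aqp4 (adjusted p = 0.122), and neither was called. These calls were weakly held: that of Sparcl1 ended when any of 5 rats was omitted (risperidone replicate 3 and vehicle replicates 1, 2, 4 and 5, adjusted p up to 0.119) and that of Aqp4 without 8 (risperidone replicates 1, 2, 3 and 5 and every vehicle rat but replicate 3, adjusted p up to 0.141). Between striatum and hippocampus the effect of risperidone was called for 0 of the 28, beside 1.63% of all genes, with 1 at an unadjusted p under 0.05 and 0 with ordinary t statistics. For haloperidol no gene of the 28 was called in the 3 comparisons between regions, beside 0.0293%, 0% and 0% of all genes, with 4, 1 and 1 at an unadjusted p under 0.05 for striatum minus frontal cortex, striatum minus hippocampus and hippocampus minus frontal cortex, and 0 with ordinary t statistics.

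The promoters of the 3 genes called against vehicle are shown so that the upstream sequence of the genes the drug results turn on can be set side by side. Sequences are from RefSeq (rat build GRCr8), as the 250 bases before the annotated start of each gene, written 5′ to 3′ on the strand of the gene. Capitals mark matches on either strand to TTCNNNGAA (a STAT motif), TGANTCA (AP-1), TTGGC (a core motif of nuclear factor I) or ACAAT (a SOX motif). The window of Gfap is chr10:88361662-88361911 on the minus strand, that of Gpr37l1 is chr13:49157205-49157454 on the minus strand and that of Fabp7 is chr20:37669356-37669605 on the plus strand.
Gfap: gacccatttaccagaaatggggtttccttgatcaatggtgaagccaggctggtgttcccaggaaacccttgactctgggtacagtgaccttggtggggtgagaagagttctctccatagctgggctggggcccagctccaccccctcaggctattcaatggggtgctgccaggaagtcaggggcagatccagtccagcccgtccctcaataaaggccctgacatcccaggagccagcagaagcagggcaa
Gpr37l1: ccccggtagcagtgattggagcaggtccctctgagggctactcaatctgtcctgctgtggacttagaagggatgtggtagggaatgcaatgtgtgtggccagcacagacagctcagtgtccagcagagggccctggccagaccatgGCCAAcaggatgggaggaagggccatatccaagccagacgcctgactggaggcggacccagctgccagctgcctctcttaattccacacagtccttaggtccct
Fabp7: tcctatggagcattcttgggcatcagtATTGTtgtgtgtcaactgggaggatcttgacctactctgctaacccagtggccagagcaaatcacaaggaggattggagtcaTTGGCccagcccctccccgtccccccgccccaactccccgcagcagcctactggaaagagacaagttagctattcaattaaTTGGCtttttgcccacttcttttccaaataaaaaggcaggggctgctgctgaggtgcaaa

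None of the 4 motifs was in the window of Gfap, 1 core motif of nuclear factor I was in that of Gpr37l1, and 2 such motifs and 1 SOX motif were in that of Fabp7. A window was at hand for 32 of the 34 genes. The nuclear factor I motif was in 18 of the 32 windows, against 40.3% of 33469 rat promoters, the SOX motif in 6, against 30% of them, the STAT motif in 3, against 7.67%, and the AP-1 motif in 2, against 6.34%. Short motifs such as TTGGC match often, and a match is not a binding site.

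Between regions of the vehicle rats, astrocyte genes differed far more than between treatments, and so did all genes tested. The share of all genes called stands beside each count of members below. Gfap was highest in hippocampus, Gjb6 and Sparcl1 were lowest in striatum, Glul was lower in striatum than in frontal cortex, and Vim, Slc4a4 and Sparc were higher in striatum than in frontal cortex. Markers of other cells differed between these regions too. In striatum against frontal cortex the median difference was 2.00 for ependymal markers (4 of 4 tested rose). For pyramidal neuron markers it was -3.11 (10 of 10 fell). The part of other cells in the differences of the members was not tested. Hippocampal arrays had a higher scale as deposited: the median intensity of an array was 107 to 110.4 in hippocampus, 87.9 to 92.1 in striatum and 89.9 to 93.1 in frontal cortex. Over all genes tested the median difference was 0.25 for hippocampus minus frontal cortex, -0.30 for striatum minus hippocampus and -0.06 for striatum minus frontal cortex, so the values below are to be read against these shifts.

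In striatum against frontal cortex 4 of the 28 genes rose and 7 fell, beside 17.7% and 26.4% of all genes. Connexins and glutamate genes were among those lower in striatum. Gjb6 read 8.17, 8.55, 8.54, 8.37 and 8.45 in striatum, against 9.44, 9.80, 9.27, 9.41 and 9.63 in frontal cortex, with no overlap (difference -1.10, standard error 0.12, adjusted p = 8.01e-11). Sparcl1 differed by -0.81 (adjusted p = 2.89e-14), Glul by -0.66 (adjusted p = 1.67e-12) and Gjb2, another connexin, by -0.65 (adjusted p = 0.00655). The transporters Slc7a11, which exchanges cystine for glutamate, Atp1b2 and Slc1a3 differed by -0.47, -0.43 and -0.38 (all 3 fell). Genes higher in striatum were Vim (0.50, adjusted p = 0.0149), the sodium bicarbonate cotransporter Slc4a4 (0.45, adjusted p = 1.12e-05), the matrix protein Sparc (0.44, adjusted p = 9.77e-06) and Fabp7 (0.41, adjusted p = 0.0146). The call of Vim was lost without vehicle replicate 1 or 3 (adjusted p up to 0.115). With arrays quantile normalized together 4 rose and 6 fell, and with arrays centred on their medians 5 rose and 7 fell.

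**Figure D4:**
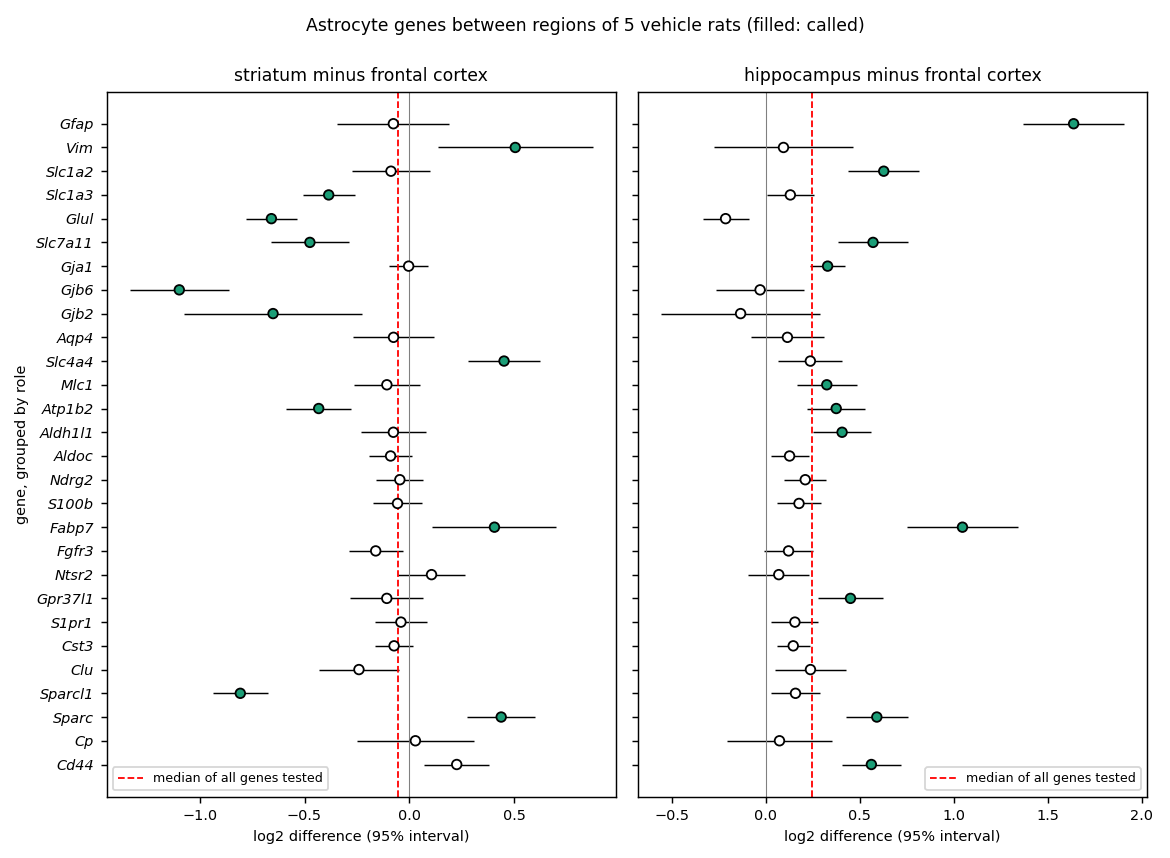
Log2 difference of striatum minus frontal cortex (left) and hippocampus minus frontal cortex (right) in vehicle rats for the 28 tested genes, with 95% intervals from limma and filled points for called genes. The dashed line is the median of all genes tested, -0.06 on the left and 0.25 on the right. Gfap (1.64) and Fabp7 (1.05) lie farthest above it in hippocampus and Gjb6 (-1.10) farthest below it in striatum.

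In hippocampus against frontal cortex 11 of the 28 genes rose and 0 fell, beside 46.7% and 6.11% of all genes. Gfap read 12.33, 12.53, 12.61, 12.36 and 12.50 in hippocampus, against 10.74, 11.12, 10.52, 10.98 and 10.80 in frontal cortex, a difference of 1.64 (standard error 0.13, 3.11-fold, adjusted p = 8.63e-14). Fabp7 differed by 1.05 (adjusted p = 5.78e-08) and Slc1a2, the main glutamate transporter of astrocytes, by 0.63 (adjusted p = 1.76e-07). Sparc, Slc7a11, Cd44, Gpr37l1, Aldh1l1, Atp1b2, Gja1 and Mlc1 rose by 0.32 to 0.59. Among these, Gpr37l1 and Mlc1, a membrane protein of astrocyte junctions, had groups that overlapped. Cd44 averaged 5.62 in frontal cortex, below the filter level of 5.883.

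That count moved with the scale. With arrays quantile normalized together 6 rose (Gfap, Fabp7, Sparc, Slc1a2, Slc7a11 and Cd44) and Glul fell, and with arrays centred on their medians the same 6 rose and Glul and Gjb6 fell. The difference of Gfap was 1.47 and 1.37 in these settings, that of Fabp7 0.86 and 0.78 and that of Slc1a2 0.35 and 0.36. Glul was at -0.21 as deposited, short of the fold threshold, and at -0.38 and -0.48 in these settings. Between striatum and hippocampus Glul fell by 0.44 as deposited, and it was not called in these settings (-0.13 in each, adjusted p = 0.0414 and 0.0693).

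In striatum against hippocampus 1 of the 28 genes rose and 17 fell as deposited, beside 8.08% and 53.9% of all genes. With quantile normalization 3 rose and 6 fell, and with centred arrays 3 rose and 7 fell. Gfap (-1.71), Gjb6 (-1.07) and Slc7a11 (-1.05) fell most as deposited, with adjusted p of 5.74e-15, 9.89e-11 and 3.37e-13, and all 3 fell in both other settings. Slc7a11 read 8.18, 8.46, 8.14, 8.16 and 8.45 in striatum, against 9.28, 9.36, 9.26, 9.18 and 9.53 in hippocampus, with no overlap. Vim was the gene that rose (0.41, adjusted p = 0.0399), a call lost with any vehicle rat but replicate 4 left out (adjusted p up to 0.177). Slc4a4 and Ntsr2, a neurotensin receptor, rose in the other settings, by 0.55 and 0.36 with quantile normalization, and were at 0.21 (Slc4a4) and under the threshold as deposited.

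The order of the regions therefore differed by gene. Gfap was not called between striatum and frontal cortex (-0.08, 95% interval -0.34 to 0.19), and in both it was below hippocampus as deposited, with quantile normalization and with centred arrays. Gjb6 was not called between hippocampus and frontal cortex as deposited (-0.03, interval -0.27 to 0.21), and both were above striatum. Of the 28 genes 17 were not called between striatum and frontal cortex, among them Gja1, Aldoc, Ndrg2, S100b, Aqp4 and Slc1a2. For the last pair another probe set did fall in striatum, by 0.53 for Slc1a2 (adjusted p = 1.79e-05, no overlap) and by 0.27 for Aqp4 (adjusted p = 2.97e-05).

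Within the 9 groups, astrocyte genes went up and down together. After subtraction of the group means, the 378 pairs of the 28 genes had a median Pearson's r of 0.38 over 45 arrays and a mean of 0.36, against a mean of 0.03 over all pairs of genes tested, and 116 pairs had r above 0.5. The closest pairs were Atp1b2 and Gpr37l1 (0.81), Fgfr3 and Ndrg2 (0.78), Slc1a3 and Sparc (0.77) and S100b and Aldoc (0.76), and the lowest was Slc4a4 and Clu (-0.30). The arrays share normalization and 3 arrays share each rat, so these values are descriptions. The comparison with all genes was not matched for level: the members had a median log2 level of 10.90, against 8.28 for all genes tested. Cd44, the only one tested of the 5 members grouped as reactive genes, had a mean r of 0.08 with the other members. Fabp7 had a mean r of 0.14, and Gfap, grouped with the intermediate filaments, of 0.36.

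**Figure D5:**
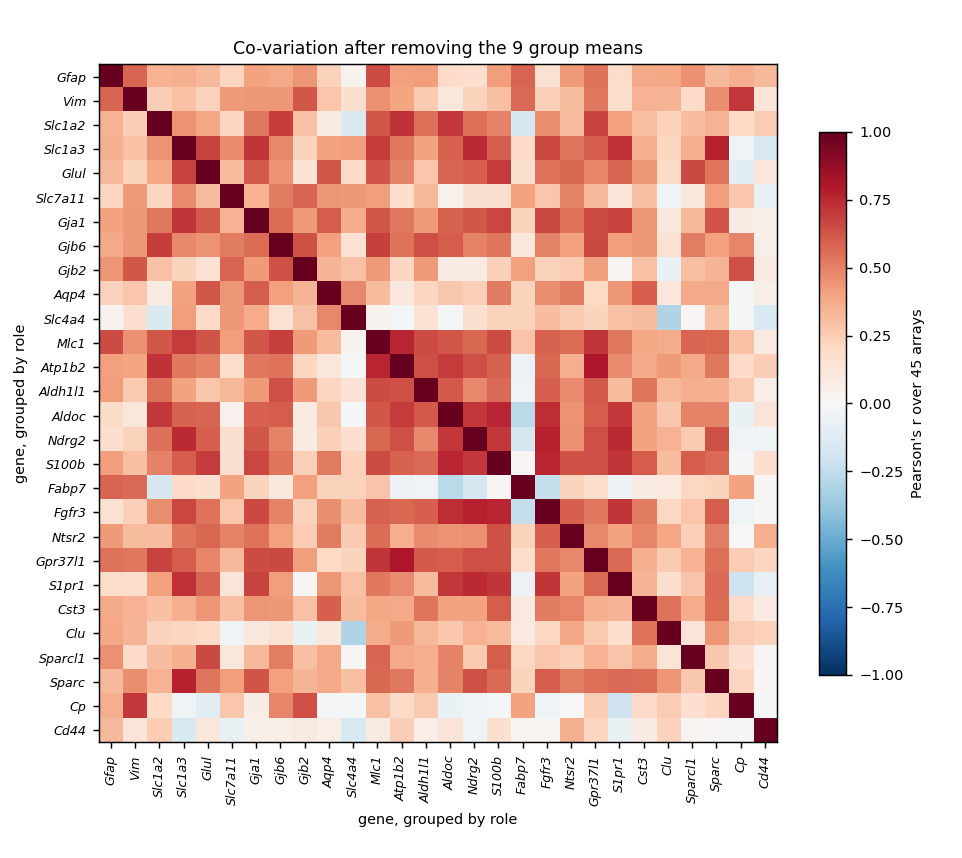
Pearson's r between the 28 tested genes (rows and columns, grouped by role) over 45 arrays, after subtraction of the mean of each of the 9 groups. Most cells are red (median r 0.38). Cd44, Fabp7, Cp, Slc4a4 and Clu have paler rows, and the lowest value is between Slc4a4 and Clu (-0.30).

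Some members went with markers of other cells. The mean level of microglial markers correlated with many of the 28 genes, highest for Mlc1 (0.78) and Aldh1l1 (0.78), while the level of general neuronal markers correlated below zero with most, lowest for Ndrg2 (-0.68). Clu, the chaperone apolipoprotein J, went with choroid plexus and meningeal markers (0.75), Vim with ependymal markers (0.67), Fabp7 with olfactory bulb markers (0.59) and Sparcl1 with pyramidal neuron markers (0.56). In striatum of vehicle replicate 1, where choroid plexus and meningeal markers stood 2.16 above the median, Clu read 12.95, against 12.32 to 12.39 in the other vehicle rats.

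Of the genes of astrocyte function outside the 34, 7 were called in frontal cortex and 3 in striatum after risperidone, where 3.3% and 3% of all genes were called. Of 39 tested genes of a further list of astrocyte-enriched genes, Id4, a repressor of differentiation, rose by 0.40 and Slco1c1, a thyroxine transporter of brain vessels and astrocytes, fell by 0.42. Of 17 genes of the glutamate, glutamine and GABA cycle the glycine transporter Slc6a9 rose by 0.31, and of 14 genes of glycogen and lactate Slc16a7, a lactate transporter, and Pfkfb3, a regulator of glycolysis, fell by 0.34 and 0.28. Of 13 genes of potassium and water handling, the inward rectifier Kcnj16 rose by 1.40 (adjusted p = 0.00102), in the region and comparison where olfactory bulb markers rose. Of 12 reactive genes outside the members Ptgs2, the inducible cyclooxygenase, fell by 1.09 (adjusted p = 1.84e-04). In striatum after risperidone Clcn2, Hspb1 and Fkbp5 of these lists fell by 0.31, 0.57 and 0.36. None of 20 genes of astrocyte signaling and fate was called against vehicle, and no gene of the 6 lists was called against vehicle in hippocampus or after haloperidol.

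The reactive genes Lcn2, Timp1 and Serpina3n were too dim for the filter. Fitted without it, none was called against vehicle in any region. Timp1, an inhibitor of matrix proteases, had the largest differences, 0.36 after haloperidol (adjusted p = 0.227) and 0.30 after risperidone (adjusted p = 0.204), both in striatum. There it read 5.17, 6.10, 5.31, 5.25 and 5.11 in haloperidol rats, against 5.18, 4.83, 4.93, 5.12 and 5.05 in vehicle rats. Haloperidol replicate 2 stood far above its group, in an array 0.57 above the median in choroid plexus and meningeal markers. Lcn2 and Serpina3n differed from vehicle by at most 0.13 after either drug.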

How the data were processed

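Affymetrix rat arrays of 15 rats in 3 regions were read from a deposited series file, whose values are linear intensities that the authors made by RMA in R (version 2.7.2). They were taken to log2, and 57 control probe sets were left out. limma 3.58.1 (R 4.3.3, data.table, version 1.17.8) fitted the 9 groups with rat as a random block (consensus correlation 0.226), with Benjamini-Hochberg adjustment per comparison over 18609 probe sets above the 40th percentile (log2 5.883). The same rat's regions deviated together (r above 0.1 in 15, 15 and 14 of 15 rats per pair of regions), while equal replicate numbers of different treatments name different rats. Of the probe sets, 20826 had 1 platform symbol, 436 several and 9780 none. The script was tested on simulated data.

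The members and lists were chosen with earlier results of these data known. By rule, members called against vehicle or between drug effects were named. Between regions, the rule took up to 3 members that rose most and 3 that fell most. Other members whose values are given were outside this rule and were chosen with their values in view. These include Sparcl1, Fabp7 and Cd44 in striatum after risperidone and Gfap in striatum after haloperidol. They also include members not called in frontal cortex, in hippocampus and between the drugs, and further members between regions. The results of further probe sets were likewise added after their values were seen. Alternatives changed the filter, scaling, block, weights, statistics and the libraries used. Replicates are separate rats.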

Additional observations from a re-analysis of the deposited data

Results flagged for a closer look

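In 17 of 252 groups of 5 rats, 1 rat stood apart from the other 4 by a Dixon test, and chance alone gives about 5% of groups. In striatum, log2 intensity was 10.65 for Gpr37l1 and 13.45 for Sparcl1 in risperidone replicate 3 (nearest rat 10.31 and 12.98), 8.668 for Slc7a11 in risperidone replicate 4, 12.08 for Glul in haloperidol replicate 5, 13.53 for Cst3 and 5.505 for Cd44 in haloperidol replicate 4, and 12.95 for Clu in vehicle replicate 1. In hippocampus it was 8.256 for Slc1a2 in risperidone replicate 5, 10.67 for Slc4a4 in risperidone replicate 4, 11.2 for Ntsr2 in risperidone replicate 1, 13.8 for Cst3 in haloperidol replicate 4, 7.044 for Cp in haloperidol replicate 1, 11.58 for Fabp7 in haloperidol replicate 5, and 9.32 for Gjb6 and 7.144 for Gjb2 in vehicle replicates 3 and 4. In frontal cortex it was 11.86 for Fabp7 in risperidone replicate 2 and 12.86 for Clu in haloperidol replicate 3.

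The effect of risperidone differed between regions for Sparcl1, by 0.3263 on the log2 scale between striatum and frontal cortex, and for Aqp4, by 0.5056 between hippocampus and frontal cortex, each by a limma contrast of the 2 effects. Both calls were weakly held. With 10 rats left out in turn, the call of Sparcl1 was lost in 5 cases and that of Aqp4 in 8.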

How the results depend on the processing

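Among gene differences followed through 10 to 14 other settings, none changed sign. None did with each of the 5 or 10 rats of its comparison left out. Some medians over the tested members did change sign. After haloperidol in frontal cortex the median was -0.004 as deposited, 0.04 with centred arrays and -0.045 to 0.037 with 1 rat left out. In vehicle rats, hippocampus minus frontal cortex went from 0.19 to -0.07 with centred arrays. Striatum minus frontal cortex went from -0.08 to 0.04 with quantile normalization over all arrays. Without the arrays high in neighboring tissue, and with the marker level as a covariate, 0 members were called for risperidone in striatum, 0 in frontal cortex, and 0 for either difference of its effect between regions. With separate fits per region, 0 were called in striatum and 0 in frontal cortex after risperidone. Differences of the effect of risperidone between striatum and frontal cortex, and between hippocampus and frontal cortex, each gave 0 calls with no filter, with quantile normalization over all arrays or within regions, and with no replicate block. With replicate number as a fixed replicate block, 1 gene (Gfap) was called in striatum after risperidone and 0 for the effect difference between hippocampus and frontal cortex. That difference was also 0 with ordinary t statistics. With array weights, risperidone gave 1 call in striatum (Gfap), 2 in hippocampus (Aqp4 and Cd44) and 2 in frontal cortex, haloperidol 1 in striatum (Gfap), and the effect of risperidone 0 calls between striatum and frontal cortex and 2 between hippocampus and frontal cortex. Centring each array gave 4 calls in striatum after risperidone and 10 between striatum and hippocampus in vehicle rats, and quantile normalization over all arrays gave 9 there and 7 between hippocampus and frontal cortex. The cause was not tested.

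With 1 rat left out, calls ranged from 0 to 4 for risperidone in striatum, 1 to 2 in frontal cortex and 0 to 1 for haloperidol in striatum, 0 to 1 for risperidone against haloperidol in frontal cortex, and 0 to 1 for the effect of risperidone between each pair of regions. In vehicle rats they ranged from 10 to 12 for striatum against frontal cortex, 11 to 13 for hippocampus against frontal cortex and 15 to 19 for striatum against hippocampus. The 0 calls for risperidone in striatum came without risperidone replicate 3, and the 4 without replicate 2. With 5 rats a group and whole tissue, small shifts of dim genes were not resolved.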
